A study of Homo sapiens and Mus musculus with 18 samples.

Results

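The 10 genes described here encode the enzymes of de novo purine synthesis and the salvage of purine bases: PPAT, GART, PFAS, PAICS, ADSL and ATIC on the route to inosine monophosphate (IMP), IMPDH1, IMPDH2 and GMPS on the branch to GMP, and HPRT1 in salvage. They were chosen by name, and all 10 had a row among the 34505 gene rows of the human files. RNA sequencing was done on cultured human pancreatic cancer cells with different amounts of keratin 17 (K17, encoded by KRT17), a filament protein made by stratified epithelia and basal-like tumours. L3.6, labelled an adenosquamous carcinoma line, was sequenced as K17 wild type and as a CRISPR-Cas9 K17 knockout. PANC-1, labelled a ductal adenocarcinoma line, was sequenced with an empty vector and with K17 over-expression. Each of these 4 groups had 3 libraries (12 in all), and all were grown in the same medium with serum and antibiotics. Whether the knockout is 1 clone or a pool, and the vector and promoter that drive K17, are not given in the sources read. The 6 libraries of mouse KPC cells were not analysed here.

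As background, purines are built stepwise on phosphoribosyl pyrophosphate (PRPP), using glutamine, glycine, aspartate, carbon dioxide and formyl groups carried by folate, until IMP is formed. IMP is then turned into AMP or GMP, while salvage enzymes recover free bases with the same PRPP. Dividing tumour cells draw on the de novo route for DNA, RNA, ATP and GTP, and several enzymes of the route are targets of antimetabolite or immunosuppressive drugs.

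Library depth ranged from 9485257 to 70789559 counts, and the PANC-1 libraries were the deeper ones. KRT17 had 175 to 204 counts in the L3.6 knockout and 1112 to 1654 in L3.6 wild type, so the knockout libraries kept some KRT17 reads; in PANC-1 it had 0 to 2 counts with the empty vector and 8597 to 9884 with K17. PANC-1 empty vector replicate 2 stood apart. Its mitochondrially encoded share was 18.8%, against 9.88% to 10.8% in the other 5 PANC-1 libraries, and 76.5% of tested genes lay outside the range of those 5 in it. The PANC-1 results of the 10 genes are therefore given with and without this library. Of 6 epithelial markers, all 6 had a mean above 1 CPM (counts scaled to a common library total) in both L3.6 groups, 4 in PANC-1 empty vector and 5 in PANC-1 K17. KRT8 and KRT19 were abundant in both lines, while CDH1, the defining epithelial cadherin, was at 1.32 CPM in L3.6 wild type and 0.380 in PANC-1 empty vector, where KRT7 was at 0.913. The squamous markers TP63, S100A2 and KRT5 were at 241, 652 and 9.39 CPM in L3.6 wild type. In PANC-1 empty vector TP63 was at 0.181 CPM and S100A2 at 6.72. Of the squamous list KRT6A had no counts and KRT14 was below 0.1 CPM in L3.6. Of 7 mesenchymal or fibroblast markers, 5 were above 1 CPM in L3.6 wild type and 3 in PANC-1 empty vector, with VIM at 1170 and 7133 CPM and COL1A1 at 123 and 32.3. Of 4 endothelial markers 1 was above 1 CPM in each of these groups, PECAM1, at 8.33 and 1.31. Of the immune markers, CD3E (T cells) had no counts in any library and PTPRC was at 0.628 to 0.984 CPM, but CD68 was at 45.5 and 41.7 CPM in the PANC-1 groups and at 2.31 and 2.07 in the L3.6 groups. INS and GCG (islet) had no counts in any library, and the summed level of the 5 acinar or islet markers was at most 0.283 CPM. Nothing in the labels ties the replicates to separate cultures; the p-values below therefore rest on a spread between libraries that may be technical.

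The 10 genes differed widely in level. Per kilobase of exon, PAICS was the most abundant in every group, at 97.6 ± 1.13 CPM per kb in the L3.6 knockout, 95.7 ± 3.52 in L3.6 wild type, 101 ± 1.61 in PANC-1 empty vector and 85.4 ± 3.72 in PANC-1 K17 (SD, n = 3). PFAS was the least abundant per kilobase in every group, at 1.38 ± 0.213, 1.30 ± 0.216, 2.52 ± 1.36 and 1.79 ± 0.127 CPM per kb in the same order of groups. In L3.6 wild type the order from the top was PAICS, GMPS, ADSL, PPAT, IMPDH1, IMPDH2, HPRT1, ATIC, GART and PFAS, and of these neighbours only ATIC and GART had overlapping libraries. In the knockout the order was the same, and only IMPDH2 and HPRT1 overlapped. In PANC-1 K17 the order was PAICS, GMPS, PPAT, ATIC, IMPDH1, ADSL, GART, IMPDH2, HPRT1 and PFAS, with overlap only between IMPDH1 and ADSL. ATIC took the second place in the empty vector group (46.5 ± 25.8 CPM per kb), and the fourth without replicate 2 (31.6 ± 3.20, n = 2). These orders describe the rows of the files: some abundant housekeeping genes have almost no counts in some of these libraries (TUBB has 0 in every PANC-1 library), so a row can be incomplete, and whether the low values of PFAS, HPRT1 and IMPDH2 are complete was not tested. The lowest count of any member in a library was 75, for PFAS, and PAICS had 7657 to 47224.

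**Figure D1:**
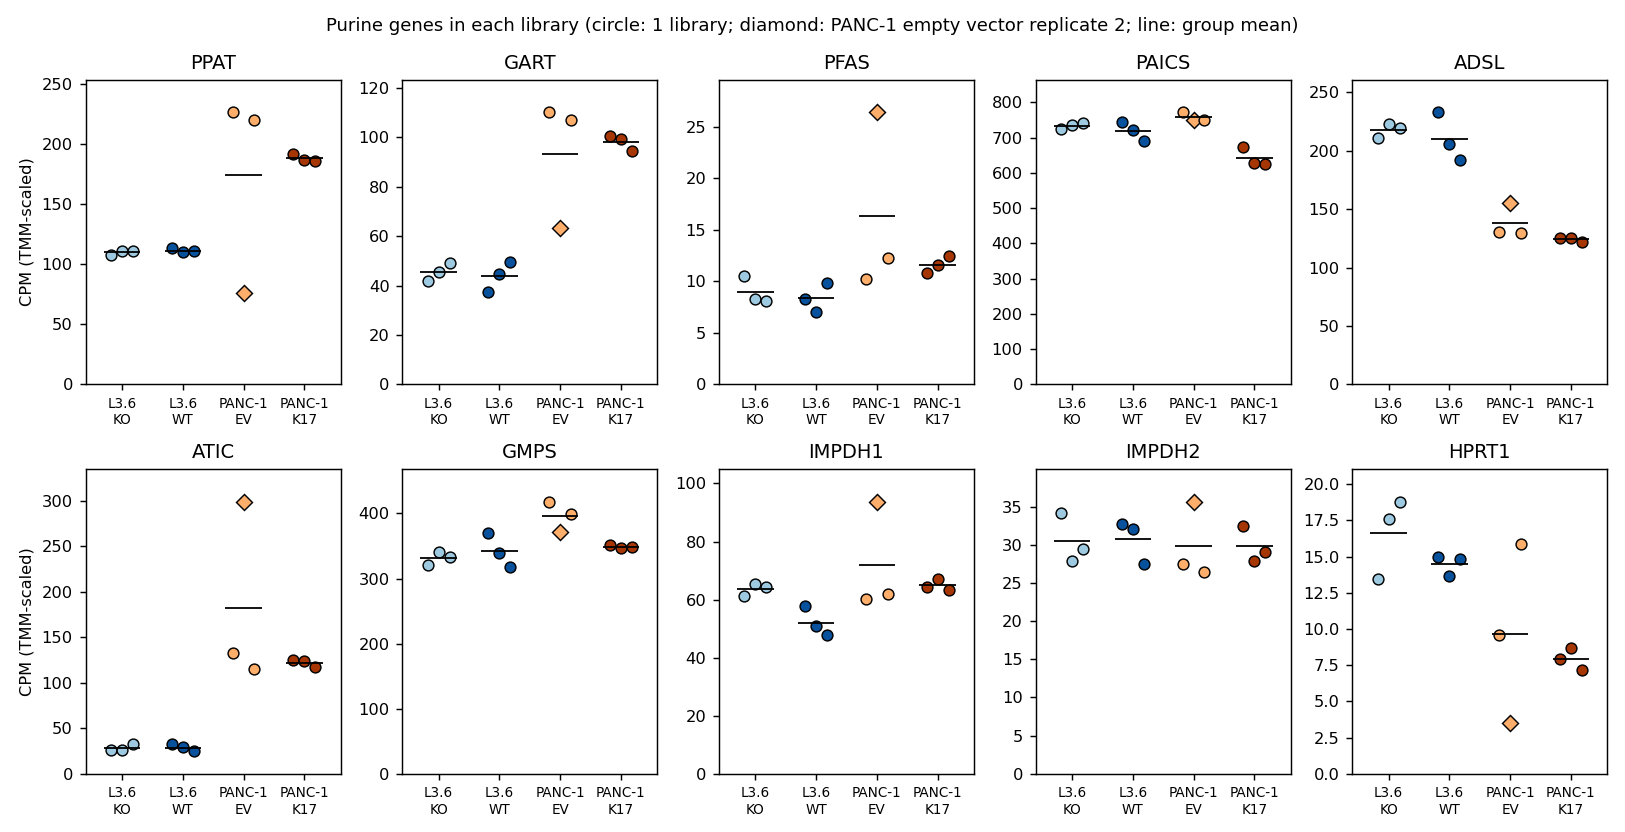
Level of each purine gene, in TMM-scaled CPM on an axis from 0, in each library of the L3.6 knockout (KO), L3.6 wild type (WT), PANC-1 empty vector (EV) and PANC-1 K17 groups. Circles are single libraries, the diamond is PANC-1 empty vector replicate 2 and lines are group means; the diamond lies away from the other PANC-1 libraries for PPAT, GART, PFAS, ATIC and IMPDH1, and within their range for PAICS and GMPS.

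None of the 10 purine genes passed the test of the K17 knockout in L3.6. In edgeR's quasi-likelihood test 0 of 10 members passed an adjusted p of 0.05, where 9.61% of 13891 genes did, and 1 of 10 had an unadjusted p under 0.05, where 27.7% of all genes did. DESeq2 and limma-voom also called 0. In bulk RNA of this kind, fewer cells with a transcript and less of it in each cell cannot be told apart. Fold changes, given here as K17-high minus K17-low on the log2 scale, ran from -0.29 to 0.05, with standard errors from 0.046 to 0.19. Their median was -0.04, beside 0.01 for all genes tested. In 1 member, IMPDH1, the groups did not overlap, where 33.2% of all genes had groups apart.

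In PANC-1 the same 10 genes gave different pictures with and without empty vector replicate 2. Over all 6 libraries 0 of 10 passed (0.644% of 16295 genes did), the lowest adjusted p in edgeR was 0.602, 0 had an unadjusted p under 0.05 (10.0% of all genes), and DESeq2 and limma-voom called 0. Without that library 4 of 10 passed, all of them lower with K17: PPAT, PAICS, GMPS and GART. The background was high as well, since 20.7% of 16640 genes passed and 9.25% passed as lower. The median over the 10 genes was -0.17 with all libraries and -0.11 without replicate 2, beside 0.01 and 0.01 for all genes. Groups did not overlap for 3 members with all 6 libraries, all lower with K17 (PAICS, ADSL and GMPS), where 25.6% of genes did not overlap and 11.1% were lower; without replicate 2 they did not overlap for 8, of which 6 were lower, where 48.3% of genes did not overlap and 22.9% were lower. Further fits added a choice beside the left-out library: other scaling, filter or test, or a further library left out. They were chosen after seeing the data and share the same libraries. Those that also left out empty vector replicate 1 or 3 kept 1 empty vector library and are not counted here. In the fits without replicate 2 that kept both others, PPAT, PAICS and GMPS passed each time and GART in 7. HPRT1 passed with DESeq2 only and ADSL with upper-quartile factors only. PFAS, ATIC, IMPDH1 and IMPDH2 passed in 0.

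**Figure D2:**
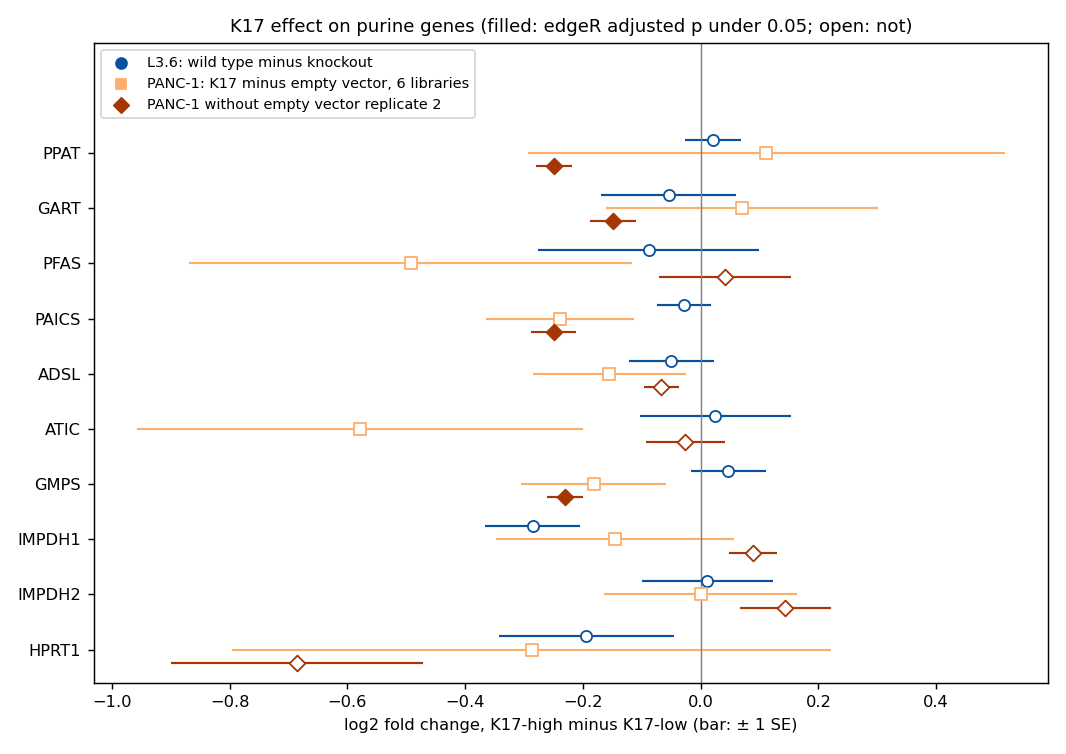
Log2 fold change of each purine gene, K17-high minus K17-low, with bars of 1 standard error, for L3.6, for PANC-1 with all 6 libraries and for PANC-1 without empty vector replicate 2. Filled symbols passed an edgeR adjusted p of 0.05: PPAT, GART, PAICS and GMPS in the last fit only, between -0.25 and -0.15.

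PPAT transfers the amide nitrogen of glutamine to PRPP, the committed step of the route, and it is the step that purine nucleotides inhibit. PPAT was measured in L3.6 at 107, 111 and 111 CPM in the knockout and at 114, 110 and 111 in wild type. These groups overlapped, and the fold change was 0.02 (SE 0.048, edgeR adjusted p = 0.797). In PANC-1 it was at 227, 76.5 and 220 CPM with the empty vector and at 192, 187 and 186 with K17. Replicates 1 and 3 of the empty vector lay above every K17 library and replicate 2 far below them. The fold change was 0.11 with all libraries (SE 0.41, edgeR adjusted p = 0.932) and -0.25 without replicate 2 (SE 0.030, edgeR adjusted p = 0.00164), a level 1.19-fold lower with K17.

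PAICS carries 2 activities, the carboxylation of aminoimidazole ribotide and the joining of aspartate to it. In L3.6 it was at 724, 735 and 741 CPM in the knockout and at 744, 722 and 691 in wild type, and the groups overlapped. The fold change was -0.03 (SE 0.046, edgeR adjusted p = 0.721). In PANC-1 it was at 771, 750 and 751 CPM with the empty vector and at 674, 627 and 624 with K17. All 3 empty vector libraries were above all 3 K17 libraries, replicate 2 among them. The fold change was nearly the same with replicate 2 (-0.24, SE 0.13, edgeR adjusted p = 0.602) and without it (-0.25, SE 0.039, edgeR adjusted p = 0.00463).

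PPAT and PAICS lie head to head on chromosome 4, which is why their start region is shown. In PANC-1 without replicate 2 both were at -0.25, and GMPS, on chromosome 3, was at -0.23. With all 6 libraries PPAT was at 0.11 and PAICS at -0.24. Replicate 2 was 2.92-fold below the mean of the other empty vector libraries for PPAT, and for PAICS it was at 750 against 761 CPM. Whether the shared start region has a part in these values was not tested. In GENCODE 29 (GRCh38) PPAT (ENSG00000128059.8) runs on the minus strand at chr4:56393362-56435615 and PAICS (ENSG00000128050.8) on the plus strand at chr4:56435741-56464579. The 125 bases between both annotated starts, chr4:56435616-56435740, are printed from the plus strand of a RefSeq promoter window (GRCh38.p14), all in lower case, with a G and C content of 76.0%.
PPAT-PAICS interval: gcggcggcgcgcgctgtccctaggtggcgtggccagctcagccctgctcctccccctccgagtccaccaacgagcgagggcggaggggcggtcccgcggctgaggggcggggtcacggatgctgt
The promoter windows (250 bases before to 50 after a start) held 8 of the 10 members, in 12 windows, and were searched for CACGTG, the E-box that MYC and MAX can bind and which reads the same on both strands. It was found for 3 members, where 8.77% of 27305 genes with a window had it (7.26% of 35116 windows). For PPAT and PAICS it is 1 and the same site, chr4:56435792-56435797, since their windows share 236 bases; its first base is 182 bases before the RefSeq start of the PPAT window and at base 41 from the RefSeq start of the PAICS window, which is not the GENCODE start given above. ATIC (ENSG00000138363.14, chr2:215311817-215349773, plus strand) had 2 matches in its window, with the first base 46 bases before and at base 30 from the RefSeq start of that window, which lies inside the GENCODE gene. The contexts are printed on the strand of the named gene with the E-box in capitals.
PPAT, chr4:56435780-56435809: aacggagatttcCACGTGcagcaaatacag
ATIC, chr2:215312001-215312030: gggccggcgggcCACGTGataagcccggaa
ATIC, chr2:215312076-215312105: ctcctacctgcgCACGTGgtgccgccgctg
A match is a description of these letters. As values beside them, PPAT and PAICS were both at -0.25 and ATIC at -0.03 in PANC-1 without replicate 2. Whether the E-box has a part in these values was not tested.

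GART is a protein with 3 activities, among them the first formyl transfer from folate. In L3.6 it was at 41.8, 45.5 and 49.1 CPM in the knockout and at 37.3, 44.6 and 49.7 in wild type, which overlap. In PANC-1 it was at 110, 63.2 and 107 CPM with the empty vector and at 101, 99.2 and 94.4 with K17. As for PPAT, replicates 1 and 3 lay above the K17 libraries and replicate 2 below them. The fold change was 0.07 with all libraries (SE 0.23, edgeR adjusted p = 0.925) and -0.15 without replicate 2 (SE 0.039, edgeR adjusted p = 0.0364). Among fits that kept both other empty vector libraries, that call was lost when K17 replicate 2 (edgeR adjusted p = 0.0700) or 3 (0.0858) was left out too. With any further library left out the fold change ranged from -0.18 to -0.12, the fits that keep 1 empty vector library included. GART (ENSG00000159131.16) lies at chr21:33503931-33543491 on the minus strand.

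PFAS, ADSL and ATIC, the other enzymes of the route to IMP, did not pass the edgeR test of K17 in either line, with or without replicate 2; ADSL passed only with upper-quartile factors in PANC-1 without it (-0.12, edgeR adjusted p = 0.0259). PFAS, which uses glutamine to form formylglycinamidine ribotide, was at 10.6, 8.26 and 8.08 CPM in the knockout, 8.31, 7.07 and 9.86 in L3.6 wild type, 10.3, 26.4 and 12.2 with the empty vector and 10.8, 11.5 and 12.4 with K17. Empty vector replicate 2 was more than 2-fold above every other library, and the PFAS fold change in PANC-1 turned from -0.49 (SE 0.38) to 0.04 (SE 0.11) without it. ADSL, which releases fumarate both on this route and in AMP formation, was at 211, 223 and 219 CPM in the knockout, 233, 205 and 192 in L3.6 wild type, 130, 155 and 129 with the empty vector and 125, 125 and 122 with K17. All 3 empty vector libraries lay above the K17 libraries, with a fold change of -0.15 with all libraries (SE 0.13, edgeR adjusted p = 0.717) and -0.07 without replicate 2 (SE 0.029, edgeR adjusted p = 0.172). ATIC, which carries out the second formyl transfer and closes the ring to give IMP, was at 26.5, 26.3 and 32.2 CPM in the knockout, 32.3, 29.3 and 24.7 in L3.6 wild type, 133, 299 and 115 with the empty vector and 125, 124 and 118 with K17. Its PANC-1 fold change was -0.58 (SE 0.38) with replicate 2 and -0.03 (SE 0.067) without it. PFAS (ENSG00000178921.13) lies at chr17:8247618-8270491 and ADSL (ENSG00000239900.12) at chr22:40346500-40390463, both on the plus strand.

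On the branch to GMP, IMPDH1 and IMPDH2 oxidise IMP, the rate-limiting step of guanine nucleotide formation, and GMPS aminates the product. GMPS was at 321, 340 and 334 CPM in the L3.6 knockout and at 371, 339 and 318 in wild type, which overlap. In PANC-1 GMPS was at 418, 371 and 399 CPM with the empty vector and at 352, 347 and 349 with K17, so that every K17 library lay below every empty vector library. The fold change was -0.18 with all libraries (SE 0.12, edgeR adjusted p = 0.662) and -0.23 without replicate 2 (SE 0.030, edgeR adjusted p = 0.00235), a level 1.17-fold lower with K17. GMPS (ENSG00000163655.15) lies at chr3:155870536-155944026 on the plus strand.

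IMPDH1 was the member nearest to a call in L3.6. It was at 61.3, 65.2 and 64.2 CPM in the knockout and at 57.7, 50.9 and 47.7 in wild type. Every wild type library lay below every knockout library, and the fold change was -0.29 (SE 0.081, edgeR adjusted p = 0.0633), a level 1.22-fold lower in wild type. The gene passed when no filter on low counts was used (-0.33, edgeR adjusted p = 0.0460) and without wild type replicate 1 (-0.38, edgeR adjusted p = 0.0113), and in no other alternative run. In PANC-1 IMPDH1 was at 60.1, 93.7 and 61.8 CPM with the empty vector and at 64.4, 67.0 and 63.4 with K17. Without replicate 2 the K17 libraries were all above the empty vector libraries, by 0.09 (SE 0.041, edgeR adjusted p = 0.187); with it the value was -0.15 (SE 0.20). IMPDH1 (ENSG00000106348.16) lies at chr7:128392277-128410252 on the minus strand. Rows of IMPDH1 pseudogenes held few counts in comparison, at most 1.86% of the IMPDH1 counts (IMPDH1P8); for PAICS the largest was 0.108% (PAICSP1), but how reads that match several genes were counted is not stated in them or in the labels.

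IMPDH2, the isoform that predominates in many dividing cells, was at 34.2, 27.8 and 29.5 CPM in the L3.6 knockout and at 32.7, 32.1 and 27.4 in wild type. In PANC-1 it was at 27.4, 35.7 and 26.4 CPM with the empty vector and at 32.5, 27.9 and 29.1 with K17. With all libraries the groups overlapped, but without replicate 2 every K17 library lay above both empty vector libraries. The fold change was 0.01 in L3.6 (SE 0.11), -0.00025 in PANC-1 (SE 0.16) and 0.14 without replicate 2 (SE 0.078, edgeR adjusted p = 0.264). Per kilobase, and as far as both rows are complete, IMPDH1 exceeded IMPDH2 in each group, with 14.2 ± 1.40 against 11.1 ± 1.04 CPM per kb in L3.6 wild type and 17.7 ± 0.505 against 10.8 ± 0.863 in PANC-1 K17 (SD, n = 3). IMPDH2 (ENSG00000178035.11) lies at chr3:49024325-49029408 on the minus strand.

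HPRT1 recovers hypoxanthine and guanine with PRPP and so competes with PPAT for that substrate. It was at 13.4, 17.6 and 18.8 CPM in the L3.6 knockout and at 15.0, 13.7 and 14.9 in wild type, with a fold change of -0.19 (SE 0.15, edgeR adjusted p = 0.423). In PANC-1 it was at 9.57, 3.53 and 15.9 CPM with the empty vector and at 7.91, 8.66 and 7.15 with K17. The 3 empty vector libraries all differed from each other by more than the K17 libraries did. The fold change was -0.29 with all libraries (SE 0.51, edgeR adjusted p = 0.854) and -0.69 without replicate 2 (SE 0.21, edgeR adjusted p = 0.0750), which did not pass. The latter was -1.0 when empty vector replicate 1 was left out too and -0.29 when replicate 3 was, fits that keep 1 empty vector library. HPRT1 (ENSG00000165704.14) lies at chrX:134460153-134520513 on the plus strand.

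PANC-1 empty vector replicate 2 did not shift the members in 1 direction. Against the mean of empty vector replicates 1 and 3, its CPM was 2.92-fold lower for PPAT, 3.6-fold lower for HPRT1 and 1.72-fold lower for GART. It was 2.41-fold higher for ATIC, 2.35-fold higher for PFAS and 1.54-fold higher for IMPDH1. For PAICS (750 against 761 CPM) and GMPS (371 against 409 CPM) it lay within the range of the other 5 libraries. In all it was outside that range for 8 of 10 members, 5 above and 3 below, against 76.5% of all genes (38.2% above and 38.3% below), and at least 2-fold away from the mean of the other empty vector libraries (0.1 CPM added to both) for 4 of 10, against 26.9% of all genes. The directions of PPAT, GART, PFAS, IMPDH1 and IMPDH2 in PANC-1 thus turned on this library, while those of PAICS, ADSL, ATIC, GMPS and HPRT1 were the same with and without it. The size of the ATIC value did turn on it, from -0.58 with it to -0.03 without it. Without replicate 2, ATIC ranged from -0.14 to 0.084 when a further library was left out.

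**Figure D3:**
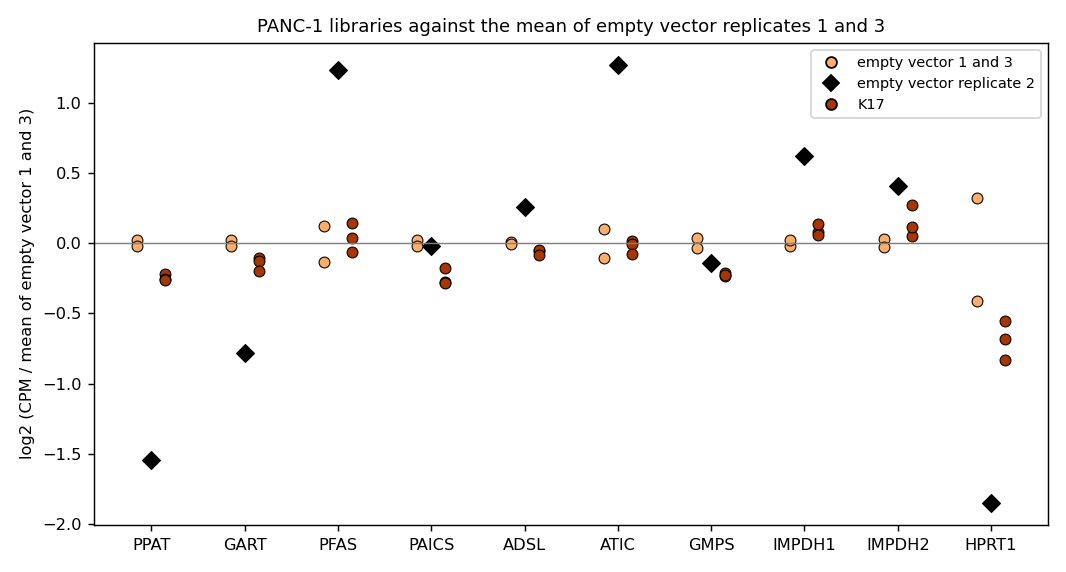
Log2 ratio of each PANC-1 library's CPM to the mean of empty vector replicates 1 and 3, for each purine gene. Black diamonds are empty vector replicate 2 and circles are the other libraries; the diamonds lie from 3.6-fold below (HPRT1) to 2.41-fold above (ATIC), while the K17 circles lie below 0 for PPAT, GART, PAICS, ADSL, GMPS and HPRT1.

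Whether the K17 effect differed between the lines was tested as an interaction (PANC-1 effect minus L3.6 effect) over the 12 libraries. In edgeR 0 of 10 members passed, where 1.54% of 17583 genes did, and the lowest adjusted p was 0.399 (GMPS, -0.26, SE 0.13). Members with an unadjusted p under 0.05 numbered 0, against 14.7% of all genes, and DESeq2 and limma-voom called 0. Without empty vector replicate 2, 0 of 10 passed again (11.5% of 15758 genes did) and 1 had an unadjusted p under 0.05 (26.4% of all genes). That member was IMPDH1, at 0.45 (SE 0.14, edgeR adjusted p = 0.0618), and PPAT came next at -0.20 (SE 0.091, edgeR adjusted p = 0.200). The falls of PPAT, PAICS, GMPS and GART in PANC-1 without replicate 2 were therefore not shown to differ from the values of the same genes in L3.6.

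The lines themselves were compared as L3.6 wild type minus PANC-1 empty vector, which differ in origin as well as in K17 and share control libraries with the comparisons above. In edgeR 3 of 10 members passed, against 50.1% of 16608 genes. ATIC was 6.01-fold lower in L3.6 (log2 -2.59, SE 0.41, edgeR adjusted p = 0.00192) and GART 2.04-fold lower (-1.03, SE 0.25, edgeR adjusted p = 0.0130). ADSL was 1.60-fold higher in L3.6 (0.68, SE 0.19, edgeR adjusted p = 0.0221). Without empty vector replicate 2, 4 of 10 passed, against 70.9% of 15143 genes: ATIC at -2.01 (SE 0.15), GART at -1.22 (SE 0.11), ADSL at 0.80 (SE 0.12), and PPAT at -0.91 (SE 0.085, edgeR adjusted p = 3.83e-05), which was -0.58 (SE 0.39, edgeR adjusted p = 0.259) with all libraries. PAICS was at 0.00 (-0.0042, SE 0.17, edgeR adjusted p = 0.985) and did not pass. In printed CPM every L3.6 wild type library of this most abundant member lay below every PANC-1 empty vector library. Whether its level was equal between the lines was not tested. The ADSL call was lost with no filter on low counts (0.57, edgeR adjusted p = 0.0782) and when any 1 of the other 5 libraries was left out, and the GART call without L3.6 wild type replicate 1 or 2 (edgeR adjusted p = 0.0550 and 0.0503). Levels between lines carry a further limit: EEF2 had 32 to 53 counts in L3.6 and 10960 to 27520 in PANC-1, TUBB had 0 in every PANC-1 library, and CANX had 16969 to 21772 in 5 PANC-1 libraries but 67 in empty vector replicate 2, so rows can be incomplete, and unevenly so across lines or libraries. Whether this touches the ATIC, GART and ADSL values was not tested.

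Genes that feed the route were described from lists of the pathway. With all 6 PANC-1 libraries 1 gene of all the lists passed, AK5, and the list medians were 0.20 for PRPP and amino acid supply, -0.16 for one-carbon folate, -0.09 for the AMP branch, salvage and kinases, 0.04 for deoxynucleotide formation, 0.22 for breakdown, -0.19 for transport, -0.05 for regulators and -0.35 for proliferation genes, beside 0.01 for all genes. The PANC-1 calls of the lists below are therefore those without replicate 2. Of 14 genes that supply PRPP and amino acids, 0 rose and 2 fell with K17 in L3.6, PHGDH of serine synthesis (-0.50, SE 0.060, edgeR adjusted p = 0.00177) and glutamine synthetase GLUL (-0.28, SE 0.067, edgeR adjusted p = 0.0382). In PANC-1 without replicate 2, 4 rose and 2 fell. Among them, transketolase TKT (0.55), PHGDH (0.65) and the PRPP synthetase PRPS1 (0.17) rose, and PRPS2 (-0.18) and RPE (-0.15) fell. PHGDH went in opposite directions in both lines, and its difference passed without replicate 2 (1.23, SE 0.12, edgeR adjusted p = 7.845e-05). Of the one-carbon folate genes tested, 1 of 16 rose and 4 fell in L3.6: the mitochondrial serine hydroxymethyltransferase SHMT2 fell by 1.27 (SE 0.16, edgeR adjusted p = 0.00375), MTHFD1L by 0.42 and the folate polyglutamate synthase FPGS by 0.46, while MTHFD1, which makes the formyl donor in the cytosol, rose by 0.47. In PANC-1 without replicate 2, 3 of 17 rose and 4 fell, among them the folate carrier SLC46A1 (0.94) and TYMS (-0.24). Of all genes, 3.51% rose and 6.1% fell in L3.6, and 11.4% rose and 9.25% fell in PANC-1 without replicate 2.

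Genes downstream of IMP and GMP were split as well. Of 19 genes of the AMP branch, salvage and nucleotide kinases, 0 rose and 1 fell in L3.6, the guanylate kinase GUK1 (-0.42, SE 0.059, edgeR adjusted p = 0.00405). In PANC-1 without replicate 2, 2 rose and 4 fell: the adenylate kinase AK5 rose by 2.35 (SE 0.089, edgeR adjusted p = 1.404e-05) from 6.75 to 34.4 CPM and adenosine kinase ADK by 0.29, while NME4 fell by 0.25 and NME1 by 0.15. AK5 was also the only gene of all the lists that passed with all 6 PANC-1 libraries (2.26, SE 0.15, edgeR adjusted p = 0.0152). Of 6 genes of deoxynucleotide formation, 0 passed in L3.6, where TXNRD1 (-0.13) and RRM2 (-0.10) had the highest levels; in PANC-1 without replicate 2 thioredoxin reductase TXNRD1 fell by 0.61 and the dNTP hydrolase SAMHD1 rose by 0.49. Of the carriers of nucleosides and bases, 0 of 3 passed in L3.6 (SLC29A1 -0.38, SLC29A2 0.60) and 1 of 4, SLC29A1, fell by 0.20 in PANC-1 without replicate 2.

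Of 17 genes of purine interconversion and breakdown tested in L3.6, 1 rose and 4 fell. Guanine deaminase GDA fell by 0.97 (SE 0.10, edgeR adjusted p = 0.00108), the ecto-nucleotidase NT5E by 1.06 and AMP deaminase AMPD2 by 0.39, and GMPR2 rose by 0.39. In PANC-1 without replicate 2, 8 of 17 rose and 0 fell, where 11.4% of all genes rose. GDA rose by 1.60 (SE 0.064, edgeR adjusted p = 1.561e-05) from 10.7 to 32.5 CPM, AMPD3 by 0.55, NUDT16 by 0.43 and the IMP and GMP nucleotidase NT5C2 by 0.26. The list's median was 0.31, beside 0.01 for all genes. With all 6 libraries GDA was at 1.83 (SE 0.25, edgeR adjusted p = 0.0511) and 0 genes of the list passed. Without replicate 2, 4 of the 10 purine genes were lower with K17 in PANC-1, and breakdown genes that passed were all higher. With all 6 libraries 0 of the 10 purine genes passed, and no test compared the lists. GDA moved in opposite directions in both lines, though neither GDA nor NT5E passed with all 6 PANC-1 libraries. The difference of the lines' K17 effects passed for both genes in the fit of all 12 libraries. It was 2.78 for GDA (SE 0.26, edgeR adjusted p = 0.000310) and 1.79 for NT5E (SE 0.19, edgeR adjusted p = 0.000886).

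**Figure D4:**
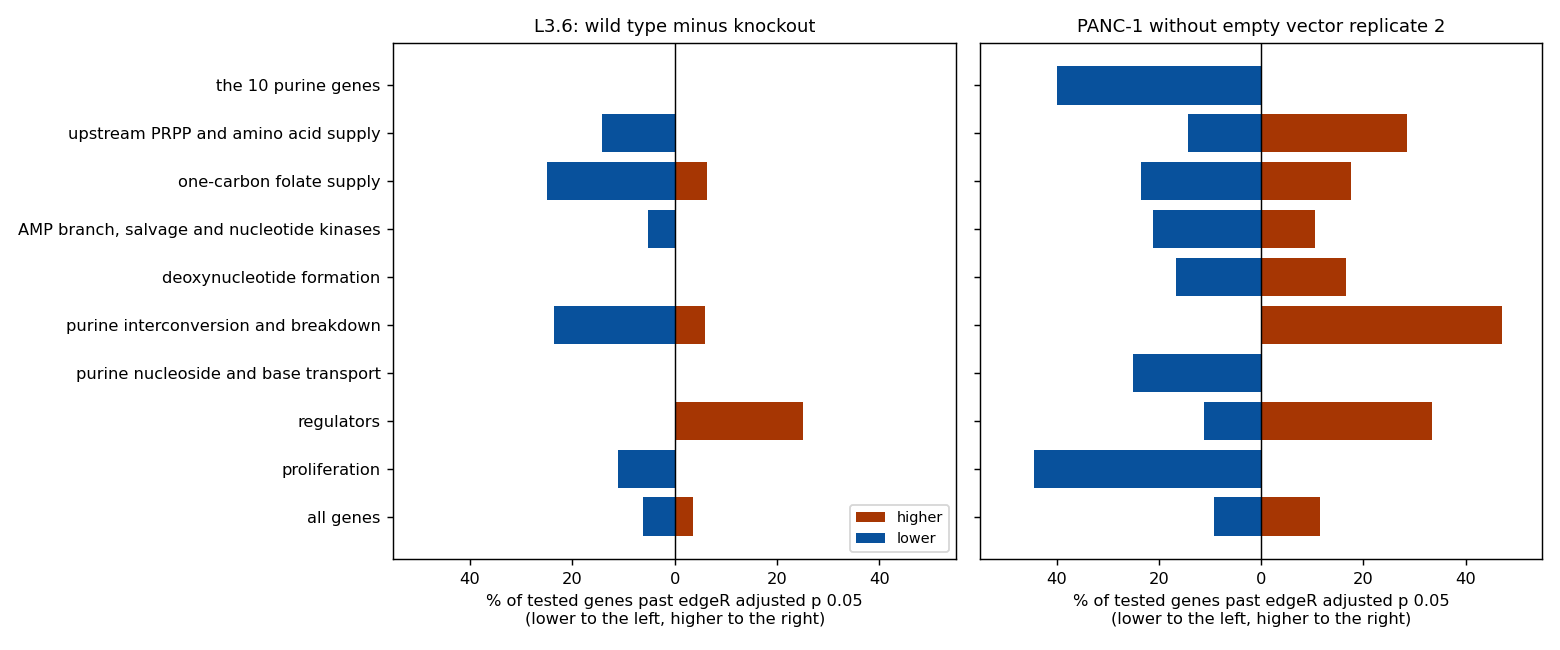
Share of tested genes in each list that passed an edgeR adjusted p of 0.05, drawn to the left where lower and to the right where higher with K17, in L3.6 (left) and PANC-1 without empty vector replicate 2 (right). The 10 purine genes have no bar in L3.6 and 4 lower genes in PANC-1, where 8 of 17 breakdown genes were higher; the lowest bars show all genes tested.

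Regulators and cell cycle genes were listed beside the route. Of the regulators, MYC, a known activator of the route, was at 205 CPM in the L3.6 knockout and 196 in wild type (-0.06, SE 0.080) and at 29.7 CPM with the empty vector and 31.6 with K17 in PANC-1 without replicate 2 (0.09, SE 0.063, edgeR adjusted p = 0.387). Its partner MAX rose in both, by 0.38 in L3.6 and 0.32 in PANC-1 without replicate 2; RPS6KB1, a kinase downstream of mTORC1, rose by 0.42 in L3.6 and fell by 0.28 in PANC-1. In all, 2 of 8 regulators rose and 0 fell in L3.6, and 3 of 9 rose and 1 fell in PANC-1 without replicate 2, where ATF4 (0.25) and RPTOR (0.23) were the others that rose. Of 18 proliferation genes, 0 rose and 2 fell in L3.6, AURKB (-0.80) and CDK1 (-0.37). In PANC-1 without replicate 2, 0 rose and 8 fell, with CCNE2 at -0.52, BUB1 at -0.25, CDK1 at -0.24 and AURKA at -0.22. The median of that list was -0.21, beside -0.11 for the 10 purine genes and 0.01 for all genes in the same fit. Of all genes, 3.51% rose and 6.1% fell in L3.6, and 11.4% rose and 9.25% fell in PANC-1 without replicate 2. PPAT, PAICS, GMPS and GART fell in the same fit as these cell cycle genes. The part of the cell cycle genes in the purine values was not tested.

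The pattern of the 6 enzymes of the route to IMP was compared with 7750 other protein-coding genes by Pearson's r of log2 CPM, centred within each line, over the 11 libraries other than empty vector replicate 2. The highest values were CITED2 (0.986), HLTF (0.967), NCAPD3 (0.959), ANTXR2 (0.949) and POLR3E (0.946). These are descriptions over few libraries, which within a line share their cells and similar depth. With scaling factors taken over all 12 libraries, 3 of these 5 were again among the highest 5. Each of the 5 had a lower value with K17 in both lines, from -0.28 (ANTXR2) to -0.04 (HLTF) in L3.6 and from -0.61 (ANTXR2) to -0.18 (HLTF) in PANC-1 without replicate 2. They were picked for likeness to the enzymes over these same libraries, so this shared direction follows in large part from the choice and is no separate result.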

How the data were processed

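Per the labels' protocols, RNA was taken up in TRIzol and libraries were prepared with a TruSeq kit. Values in the deposited files are whole-number counts, 1 per gene and library, which the authors had not normalized. The submitters' processing notes list GRCh38 as the human build, and kallisto 0.46.2 and STAR 2.7.3a among the tools; which of them counted, with what annotation and strand setting, is not given in the sources read. Identifiers were matched without version to GENCODE 29, which held 34474 of 34505, and gave names, coordinates and exon lengths. Per-length values divide by all annotated exon bases, so they assume that a gene's reads cover them.

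The members and lists were chosen with earlier results of these data known. Each comparison was fitted with edgeR 4.0.16 in R 4.3.3 (glmQLFit with robust spread, glmQLFTest, TMM, filterByExpr) and Benjamini-Hochberg adjustment over all genes kept; all 10 members passed the filter in each comparison. Printed CPM uses TMM factors within each line, with both lines set on 1 scale by the mean factor of a fit of all 12 libraries. Named beside the members are KRT17, up to 4 genes per list with the smallest adjusted p (the 2 of highest level where none passes), pseudogene rows with at least 10 counts and the 5 genes of most similar pattern, with at least 5 CPM in both lines and 0.5 CPM added before the log; MYC, PRPS2, RPE and the other list genes outside this rule were chosen after their values were seen. Some list genes are counted but not reported here by name. Alternatives were other scaling and filters, DESeq2 1.42.0, limma-voom (limma 3.58.1), a replicate block, 1 fit of the 4 groups and each library left out. The fits were tested on simulated data: of 100 genes changed 2-fold, 58 were found in L3.6, 3 in PANC-1 with all libraries, 58 in PANC-1 without empty vector replicate 2, 1 for the difference of the lines' K17 effects and 1 between the lines. Of the calls, 13 of 155 were wrong in L3.6 and 17 of 155 in PANC-1 without that replicate, more than the nominal share. The simulated data held 100 genes changed 2-fold, 100 changed 4-fold and no other change. The real fits called 1335 genes in L3.6, 3442 in PANC-1 without that replicate and 8315 between the lines. The shares found in the simulation may therefore not hold for the real data.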

Additional observations from a re-analysis of the deposited data

Results flagged for a closer look

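A test of the difference between both lines' K17 effects (edgeR interaction over the 12 libraries) passed for the 3 genes given below. It also passed, as higher, for 1 of 17 one-carbon folate genes. KRT17 itself differed by 10.51 on the log2 scale (PANC-1 effect minus L3.6 effect), between a knockout that keeps some reads and an over-expression from almost none. The guanine deaminase GDA differed by 2.78 (adjusted p = 0.000310) and the ecto-nucleotidase NT5E by 1.79 (adjusted p = 0.000886).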

How the results depend on the processing

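Directions of purine genes turned under other scaling, filters or tests for the small values below, and with a library left out for the ranges below that cross 0. HPRT1 turned to 0.27 in PANC-1 without empty vector replicate 3. The genes called in L3.6 numbered 1335, and 665 with the replicate block, 204 in 1 fit of the 4 groups and 574 to 2493 with a library left out; members called were 0, 1 with no filter and 0 to 1 with a library left out. In PANC-1 105 genes were called, and 595 by DESeq2, 0 with the replicate block, 363 in 1 fit of the 4 groups and 0 to 3442 with a library left out (members 0 to 4); without replicate 2, 3442 fell to 2053 to 2837 when a further library was left out. For the difference of the lines 270 genes were called, and 783 by DESeq2, 70 with the replicate block and 138 to 1819 with a library left out. Between the lines 3 members were called, 6 in 1 fit of the 4 groups and 1 to 4 with a library left out. With no filter, the L3.6 fold change turned to -0.020 for PPAT, -0.015 for ATIC and -0.029 for IMPDH2, the PANC-1 value of IMPDH2 to 0.0099, and the difference to 0.066 for IMPDH2 and 0.0066 for HPRT1. In 1 fit of the 4 groups, L3.6 values turned to -0.0053 for PPAT, -0.0023 for ATIC and -0.014 for IMPDH2, and IMPDH2 between the lines to -0.013. With upper-quartile factors, PAICS turned to 0.023 and ADSL to 0.00076 in L3.6, GART to -0.0081 in PANC-1, PFAS to -0.010 in PANC-1 without replicate 2, and PAICS to 0.21 and GMPS to 0.075 between the lines, where these factors moved the median of all genes by 0.22. With the CPM filter, PAICS between the lines was 0.014 and the IMPDH2 difference 0.024; the latter was 0.020 with RLE factors and 0.019 with DESeq2. With limma-voom, IMPDH2 in PANC-1 was 0.0096 and the HPRT1 difference 0.091. The cause was not tested in these cases.

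With a library left out, L3.6 fold changes ranged from -0.0024 to 0.035 for PPAT, -0.16 to 0.046 for GART, -0.21 to 0.038 for PFAS, -0.14 to 0.012 for ADSL, -0.080 to 0.13 for ATIC, -0.023 to 0.098 for GMPS and -0.057 to 0.094 for IMPDH2. In PANC-1 they ranged from -0.25 to 0.35 for PPAT, -0.15 to 0.20 for GART, -0.74 to 0.041 for PFAS, -0.26 to 0.089 for IMPDH1, -0.079 to 0.14 for IMPDH2 and -0.69 to 0.27 for HPRT1, and without replicate 2 from -0.079 to 0.16 for PFAS and -0.14 to 0.084 for ATIC. The difference ranged from -0.20 to 0.38 for PPAT, -0.014 to 0.31 for GART, -0.62 to 0.20 for PFAS, -0.20 to 0.11 for ADSL, -0.82 to 0.017 for ATIC, -0.13 to 0.20 for IMPDH2 and -0.41 to 0.52 for HPRT1. Between the lines PAICS ranged from -0.12 to 0.031 and IMPDH2 from -0.085 to 0.29.

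Samples with the same replicate number did not deviate together (r from -0.091 to 0.079 within the lines). This check cannot exclude a pairing, since the PANC-1 empty vector deviations are taken from a mean that includes the outlying replicate 2. The replicate block turned IMPDH2 in PANC-1 to 0.010 and the HPRT1 difference to 0.089, and ended the ADSL call between the lines (adjusted p = 0.0634).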
